A study of Arabidopsis thaliana with 24 samples.

Results

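The members described here are the 49 probe sets of the expression array whose ID numbers run from 244901 to 244931 (31 probe sets) or from 244942 to 244959 (18 probe sets), the blocks designed on the mitochondrial genome of Arabidopsis thaliana. They were chosen by ID number alone, with no use of the measured values, from 22810 probe sets, of which 22746 are not array controls. The array annotation used here lists a gene for 18 members. Of these, 12 carry 1 mitochondrial gene, 1 carries the adjoining mitochondrial genes rps3 and rpl16, and 5 carry loci on chromosome 2. The remaining 31 have no listed gene and are named by their ID. Of 32 distinct protein gene symbols in the RefSeq mitochondrial annotation, 14 were named by a member. Suffix _s_at, which marks a probe set that detects several transcripts, was carried by 14 members.

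Shoots of 2 genotypes, both in the Columbia-0 background, were compared: wild type (WT) and pnp1-1, which lacks a working copy of the polynucleotide phosphorylase of chloroplasts. That enzyme degrades and trims RNA inside plastids, and a related protein encoded by another nuclear gene, PNP2, does so in mitochondria. Seedlings of both genotypes were 2 weeks old, raised on complete medium that held sucrose, when they were transferred for 3 h or 1 week. The new medium contained phosphate (+P) or lacked it (-P, in which potassium sulfate took the place of potassium phosphate). Each of the 8 groups had 3 arrays, and each biological replicate pooled at least 4 seedlings without their roots. The mutant is represented by 1 allele, so an effect of the allele and one of the line cannot be told apart. The PNP1 transcript itself was not analysed here.

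The plant mitochondrial genome keeps a small set of genes for subunits of the respiratory chain and ATP synthase, for cytochrome c maturation, for ribosomal proteins and for RNA processing, while most mitochondrial proteins are encoded in the nucleus. Its transcripts are trimmed, spliced and edited, and a poly(A) tail on them marks an RNA for degradation rather than for stability. In Arabidopsis a large copy of mitochondrial DNA also lies on chromosome 2, so a probe set of this kind may hybridise to RNA of either compartment, and the arrays cannot tell these apart. The amplification kit used here is of a kind primed on poly(A) tails. An intensity is therefore the amount of hybridising, amplified RNA and not the number of mitochondrial transcripts.

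Most members gave no signal above the array's dim range. Of the 49, 37 lay under an intensity of 16 on all 24 arrays, which is 75.51% against 32.18% of all 22746 probe sets. The plastid genome's probe sets were a contrast on the same arrays, with 2 of 77 under 16 throughout. The median intensity was 5.4 over the members and 1351.29 over the plastid probe sets. These levels describe probe sets and do not rank genes. Dim members included complex I subunits nad6 (5.16 to 7.58 over 24 arrays), nad7 (11.30 to 14.23) and nad9 (4.90 to 14.63). They also included ccmB (4.29 to 6.60) and ccmFN2 (4.26 to 4.91), which serve cytochrome c maturation, the intron maturase gene matR (3.84 to 4.22) and mttB (3.10 to 3.31), which encodes a membrane translocase subunit. No dim member passed the test in any comparison of the main fit below, although some were called when 1 array was left out.

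Most dim members followed each array's general background. Over the 24 arrays, the deviation of a dim member from its group mean correlated with that of the array's lower quartile at a median r of 0.927, with a range of -0.321 to 0.991. The r was over 0.5 for 30 of the 37. Among those with a lower r were nad9 (0.158), ccmB (0.076) and nad6 (-0.144). The other 7283 probe sets that stayed under 16 had a median of 0.947, and the points share the array in both cases. On 5 arrays the lower quartile of all probe sets was over 6. They were WT +P replicate 2 and pnp1-1 -P replicate 2 at 3 h, and pnp1-1 +P replicate 2, WT -P replicate 1 and pnp1-1 -P replicate 1 at 1 week. On these arrays, 28, 33, 34, 33 and 33 of the 37 dim members were at their group's highest value. WT +P replicate 1 at 1 week, whose lower quartile was not over 6, held 35 of the 37. The 9 brighter members had correlations of -0.54 to 0.268 with the same quartile.

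**Figure D1:**
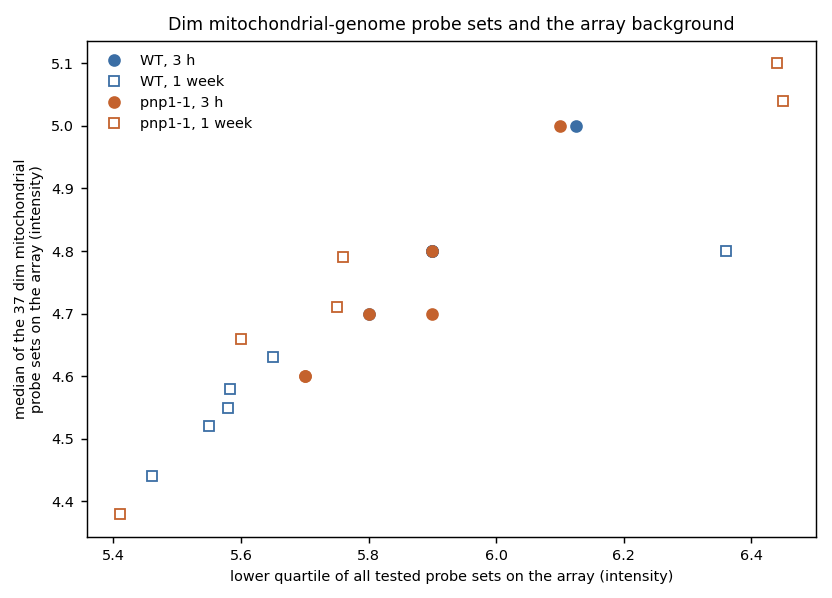
Dim members and the background of each array. The plot sets the median intensity of the 37 dim members against the lower quartile of all tested probe sets for each of the 24 arrays (circles at 3 h, squares at 1 week, blue for WT and orange for pnp1-1; some points coincide). The 5 arrays with a lower quartile over 6 lie to the right.

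A further 3 members crossed an intensity of 16 on a few arrays only. The complex I subunit nad4L did so once, at 27.1 in WT -P replicate 1 at 3 h, and lay between 7.4 and 14.51 on the other 23 arrays. The chromosome 2 locus AT2G07732 reached 16.7, 24.12, 22.37 and 23.71 on 4 arrays, and these were 4 of the 5 arrays with the raised lower quartile. AT2G07708 reached 20.3 and 16 in pnp1-1 +P and 19.2 in WT -P at 3 h. Neither locus passed the test in any comparison.

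The other 9 members had group means of at least 16 in all 8 groups. They were the cytochrome c maturation genes ccmFN1 (listed under its older name ccb382) and ccmFC (listed as ccb452), the complex I subunit nad4, the cytochrome c oxidase subunit cox2, the ribosomal protein genes rps3 and rpl16 on 1 shared probe set, AT2G07751, and the unlisted 244903_at, 244906_at and 244921_s_at. Each was measured in every group, and only these 9 carried differences between genotypes that could be read above the dim range. In bulk tissue, fewer cells of a type (or fewer mitochondria per cell) and less RNA per cell cannot be told apart.

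**Figure D2:**
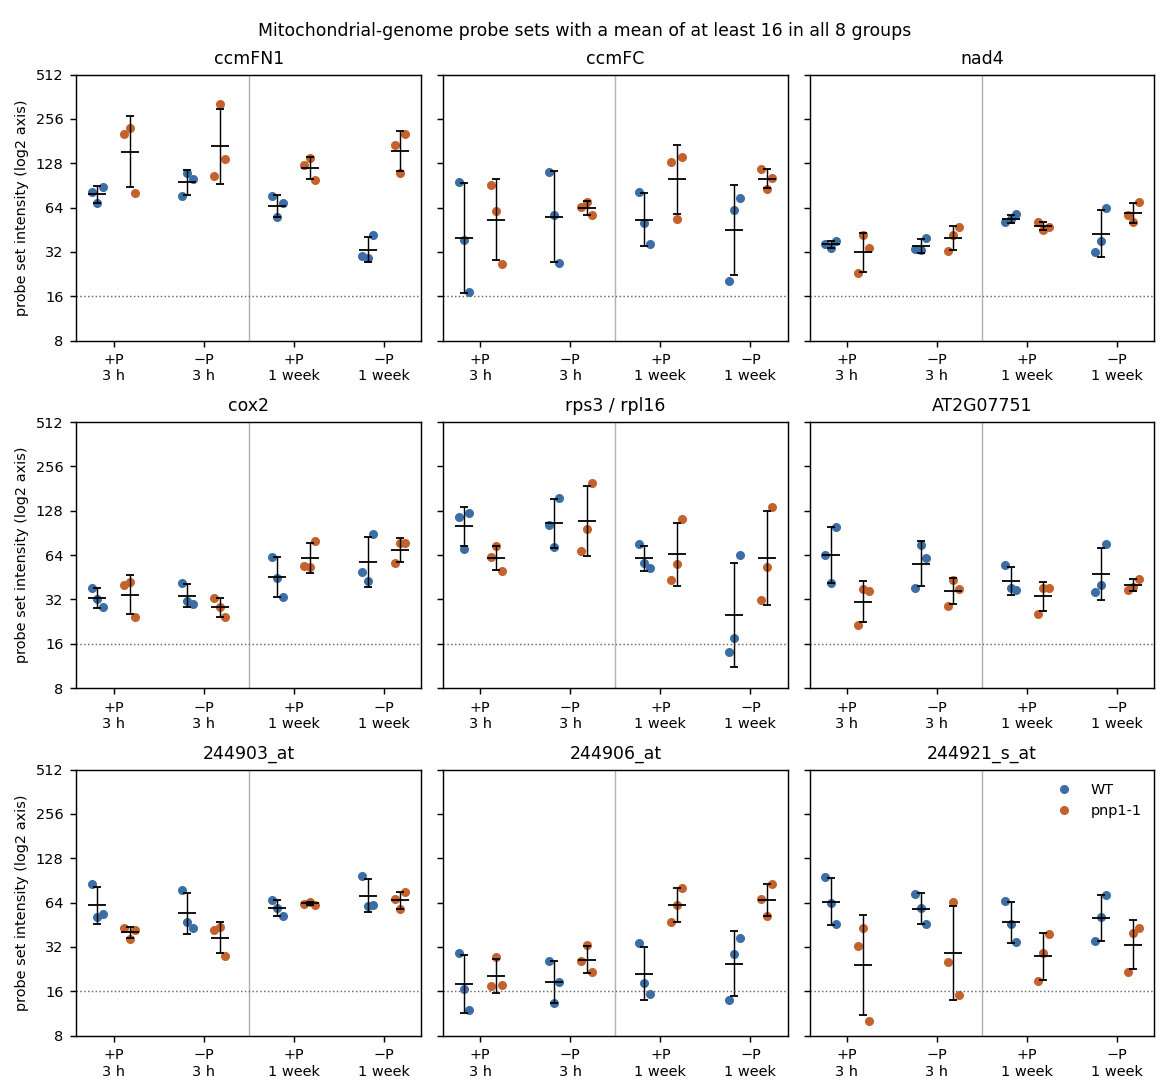
Intensities of the 9 brighter members on every array, on a log2 axis, by group, with 1 point per array, a bar at the geometric mean of 3 arrays and whiskers of 1 SD of the log2 values. The dotted line marks 16. In ccmFN1 the -P arrays at 1 week separate by genotype, at 29.28 to 41.77 in WT and 110.41 to 201.94 in pnp1-1.

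The clearest genotype difference was that of ccmFN1, which encodes part of the machinery that attaches haem to cytochrome c. On -P at 1 week its intensities were 29.81, 29.28 and 41.77 in WT and 169.43, 110.41 and 201.94 in pnp1-1 (244912_at). All mutant arrays lay above all WT arrays, by a wide margin. The log2 difference was 2.23 ± 0.38 (SE), a 4.70-fold higher level, with an adjusted p of 0.00346 in the limma fit. This was the only member called in that comparison (1 of 49), where 1.64% of all probe sets passed and 1.1% passed as higher.

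On +P at 1 week, ccmFN1 had intensities of 76.21, 54.82 and 68.23 in WT and 123.62, 137.93 and 97.88 in pnp1-1. The groups again did not overlap, at a log2 difference of 0.85 ± 0.38 and a limma adjusted p of 0.214. At 3 h on +P the values were 81.5, 68.3 and 87.9 in WT and 202.1, 221.7 and 80.7 in pnp1-1. Replicate 3 of the mutant lay within the WT range while the other two lay above it. The difference there was 0.96 ± 0.38 with a limma adjusted p of 0.15. Without pnp1-1 +P replicate 3 it was 1.43 with an adjusted p of 0.0268, so this array decides the call. On -P at 3 h the values were 76.6, 110.4 and 100.5 in WT and 104.6, 322.5 and 137.8 in pnp1-1, and the groups overlapped through replicate 1 of the mutant (0.82 ± 0.38, limma adjusted p = 0.3).

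The larger difference of ccmFN1 on -P at 1 week went with a lower WT level. In WT at 1 week its intensity on -P was below that on +P in all arrays, with a log2 difference of -0.99 ± 0.38 and a limma adjusted p of 0.189. In pnp1-1 the same medium difference was 0.39 ± 0.38 (adjusted p = 1). The test of the difference between these responses gave 1.38 with an adjusted p of 0.83, so no difference in the effect of genotype between the media was called.

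The second cytochrome c maturation gene of the brighter set, ccmFC, had the widest scatter within groups. On -P at 1 week it had 20.24, 61.94 and 74.13 in WT and 116.15, 86.2 and 102.11 in pnp1-1. The groups did not overlap, but WT replicate 1 lay far below the others. The difference was 1.15 ± 0.65 with a limma adjusted p of 0.603. On +P at 1 week it had 81.7, 50.63 and 36 in WT and 131.06, 53.57 and 141.15 in pnp1-1, which overlapped. At 3 h its values ran from 17 to 111.6 in WT and from 26.7 to 91.6 in pnp1-1, a span in each genotype that exceeded the genotype difference.

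Of the members listed with a mitochondrial complex I gene, only nad4 had group means of at least 16 in all 8 groups. The brighter members without a listed mitochondrial gene were not assigned a function here. On -P at 1 week nad4 had 31.74, 37.85 and 63.91 in WT and 57.07, 51 and 70.09 in pnp1-1, and the groups overlapped (0.47 ± 0.22, limma adjusted p = 0.466). On +P at 1 week it had 50.88, 53.25 and 57.67 in WT and 51.37, 45.04 and 47.59 in pnp1-1. At 3 h it lay between 32.8 and 39.7 in WT and between 22.9 and 47.3 in pnp1-1, so the WT values sat inside the mutant range. Averaged over the 4 conditions, the nad4 difference was 0.08, with a 95% confidence interval of -0.16 to 0.31.

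For the cytochrome c oxidase subunit cox2, no genotype difference exceeded the scatter of the arrays. At 3 h it had 38.3, 32.1 and 28.4 in WT on +P and 40.4, 41.9 and 24.2 in pnp1-1. At 1 week on +P it had 62.3, 44.79 and 33.41 in WT and 53.83, 53.21 and 80.14 in pnp1-1, and on -P 49.19, 42.52 and 88.82 in WT and 56.15, 77.65 and 76.94 in pnp1-1. All of these pairs of groups overlapped. The mean cox2 difference over the 4 conditions was 0.13 ± 0.14, with a 95% confidence interval of -0.17 to 0.44 and a limma adjusted p of 0.66.

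The probe set shared by rps3 and rpl16, which encode a small-subunit and a large-subunit ribosomal protein, spread widely. In WT on -P at 1 week it had 14, 17.63 and 63.66, against 31.85, 53.31 and 134.9 in pnp1-1. Each mutant array exceeded the WT array of the same number, while the groups overlapped. The difference was 1.29 ± 0.57 with a limma adjusted p of 0.403, in a fit that did not pair these arrays. On +P at 1 week the values were 76.06, 56.6 and 52.16 in WT and 43.65, 55.54 and 112.31 in pnp1-1. Its difference between media in WT at 1 week was -1.28 ± 0.57, with an adjusted p of 0.283.

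Of the members with no listed gene, 244906_at was the only one called on +P at 1 week (1 of 49 members, where 7.35% of all probe sets passed and 3.33% passed as higher). Its intensities were 33.88, 18.18 and 15.3 in WT and 47.22, 61.43 and 80.99 in pnp1-1. The groups did not overlap, and the difference was 1.55 ± 0.40, a 2.92-fold higher level, with a limma adjusted p of 0.0248. The call was lost when any 1 of 4 arrays was left out: WT replicate 2 (adjusted p = 0.105) or 3 (0.112), or pnp1-1 replicate 2 (0.0862) or 3 (0.0701). On -P at 1 week the same probe set had 13.99, 28.82 and 37.02 in WT and 67.4, 51.95 and 85.81 in pnp1-1. The groups were again apart, at 1.44 ± 0.40 with an adjusted p of 0.0857. At 3 h the genotypes overlapped on both media, with differences of 0.18 on +P and 0.50 ± 0.40 on -P.

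At 3 h on +P, 5 of the 9 brighter members had a lower mean in pnp1-1, and for 3 of them the groups did not overlap. Of all 49 members, 6 were lower without overlap, beside 10.7% of all probe sets. AT2G07751, a chromosome 2 locus, had 64, 41.6 and 98.9 in WT and 21.5, 37.7 and 36.7 in pnp1-1. The mutant arrays all lay below the WT arrays. The difference was -1.05 ± 0.34 with a limma adjusted p of 0.0731. Without WT +P replicate 2 it was -1.36 with an adjusted p of 0.0335. With all arrays kept, it was also called with a replicate block (limma adjusted p = 0.0462) and with dim probe sets filtered out (0.0491). The same held for quantile normalization (0.0434) and median centring (0.0482), so the call depends on the processing. The unlisted 244921_s_at, next to it in ID number, had 95.3, 63.4 and 45.6 in WT and 32.7, 43.2 and 10 in pnp1-1, also without overlap (-1.43 ± 0.54, adjusted p = 0.131). The unlisted 244903_at had 86, 50.9 and 53.5 in WT and 42.8, 36.3 and 42 in pnp1-1, without overlap (-0.61 ± 0.24, adjusted p = 0.147). The other two, nad4 (-0.18) and the rps3 and rpl16 probe set, overlapped. The latter had 115.4, 70.8 and 124.5 in WT and 62.4, 73.3 and 50.3 in pnp1-1 (-0.71 ± 0.57, limma adjusted p = 0.617). On -P at 3 h, AT2G07751, 244921_s_at and 244903_at were also lower in the mean, by differences of -0.62 ± 0.34, -0.9998 ± 0.54 and -0.54 ± 0.24, with overlapping groups and limma adjusted p-values of 0.419, 0.414 and 0.266. At 1 week the groups of these 3 overlapped on both media, with differences from -0.77 to 0.10 and adjusted p-values of 0.473 or more.

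Counted over all members, limma called 0 of 49 on +P at 3 h, where 7.41% of all probe sets passed, and 0 of 49 on -P at 3 h, where 4.26% passed. At an unadjusted p under 0.05 there were 4 members on each medium at 3 h and 5 on each at 1 week, against 20.1%, 16%, 20.2% and 10.8% of all probe sets. On +P at 3 h the groups did not overlap for 1 member that was higher (9.79% of all probe sets) and 6 that were lower (10.7%), and on -P for 0 higher (11.3%) and 2 lower (9.26%). At 1 week they did not overlap on +P for 6 higher (12.1%) and 0 lower (12.9%), and on -P for 4 higher (6.96%) and 1 lower (5.46%). The largest of these shares of the members, 12.2%, is near its background. The median member difference was -0.04, -0.01, 0.07 and 0.02 on the log2 scale, in the order +P and -P at 3 h and +P and -P at 1 week, beside -0.02, -0.0012, 0.05 and 0.01 over all probe sets. In the same comparisons, 25, 22, 27 and 25 of the 77 plastid probe sets were called.

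**Figure D3:**
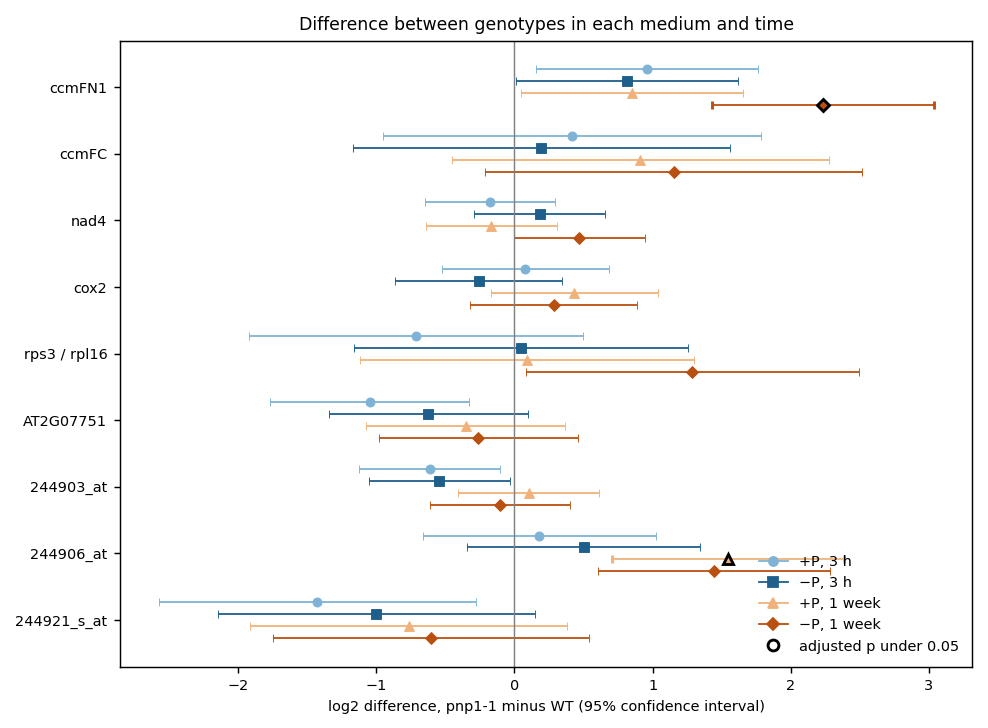
Log2 difference between genotypes (pnp1-1 minus WT) for the 9 brighter members in each medium and time, with 95% confidence intervals; a black outline marks a limma adjusted p under 0.05. The 2 outlined points are ccmFN1 on -P at 1 week (2.23) and 244906_at on +P at 1 week (1.55).

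The mean of the 4 genotype differences was added after the values had been seen. It called 4 of 49 members, 2 higher and 2 lower, where 22.5% of all probe sets passed (11.3% higher and 11.2% lower). The share of members called was 8.16%. At an unadjusted p under 0.05 there were 8 members, against 31.8% of all. These shares cover unlike mixes of dim and brighter probe sets, since 75.51% of members and 32.18% of all stayed under 16 throughout. Of the 37 dim members 0 were called, and the 4 calls were all among the 9 brighter members. The higher ones were ccmFN1, at 1.22 ± 0.19 (2.32-fold, limma adjusted p = 0.000182), and 244906_at, at 0.92 ± 0.20 (1.89-fold, adjusted p = 0.0027). The lower ones were 244921_s_at, at -0.95 ± 0.27 (adjusted p = 0.017), and AT2G07751, at -0.57 ± 0.17 (adjusted p = 0.0214). All 4 were called in each of 32 alternative settings and leave-outs of 1 array. Of the plastid probe sets, 48 of 77 were called in this mean.

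Withdrawal of phosphate moved no member past the test. After 3 h, limma called 0 of 49 members in WT, where 0% of all probe sets passed, and 0 of 49 in pnp1-1, where 0.00879% passed, with 0 members at an unadjusted p under 0.05 in either genotype (3.59% and 1.24% of all probe sets). After 1 week it called 0 of 49 in WT, where 3.43% of all probe sets passed, and 0 of 49 in pnp1-1, where 0.941% passed, with 3 and 0 members at an unadjusted p under 0.05 (15.6% and 5.53% of all). Among the 9 brighter members the 1-week differences ran from -1.28 to 0.33 in WT and from -0.08 to 0.39 in pnp1-1. The lowest 2 in WT were the rps3 and rpl16 probe set and ccmFN1, given above. The means over both genotypes, added after the values had been seen, called 0 of 49 members at 3 h (0% of all) and 0 of 49 at 1 week (3.78% of all), with 0 members at an unadjusted p under 0.05 at either time (1.54% and 14.6% of all).

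The interactions called no member either. For genotype by phosphate, limma called 0 of 49 at 3 h (0% of all probe sets) and 0 of 49 at 1 week (0.0791%), with 0 and 1 members at an unadjusted p under 0.05 (3.01% and 5.21% of all). For genotype by time, it called 0 of 49 on +P (0.136%) and 0 of 49 on -P (0.308%), with 1 member each at an unadjusted p under 0.05 (9.58% and 6.63% of all). Levels at 3 h and at 1 week were not compared, since the arrays of each time are written with a different number of decimals and time and array batch cannot be told apart.

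How the brighter members moved together within groups was described by the correlation of their deviations from the group means over the 24 arrays. The highest value, 0.733, was between 244921_s_at and cox2. Next came 244906_at with ccmFC (0.682) and with 244921_s_at (0.663), and nad4 with the rps3 and rpl16 probe set (0.661). The lowest was -0.376, between 244903_at and nad4. The genes ccmFC and nad4 adjoin each other in the annotated gene order and had 0.029. AT2G07751 and 244921_s_at, both lower in the mutant in the mean, had 0.155. All points share the array, its RNA and its background.

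The nuclear genes that serve mitochondria were looked at beside the members, from lists of which most genes have no probe set named here. Of 13 nuclear genes of mitochondrial DNA and RNA, 5 were measured, and limma called 0 of these 5 in each of the 4 genotype comparisons. Of all probe sets, 7.41% and 4.26% passed on +P and -P at 3 h, and 7.35% and 1.64% at 1 week. PNP2, the mitochondrial polynucleotide phosphorylase, had 31.1, 14.3 and 10.7 in WT and 56.4, 56.9 and 33 in pnp1-1 on +P at 3 h. The groups did not overlap, with a difference of 1.49 ± 0.57 and an adjusted p of 0.131. Replicate 1 of WT stood above the others. At 1 week PNP2 lay under 16 on 11 of 12 arrays. Its mean over the 4 conditions was 0.81 ± 0.28 with an adjusted p of 0.0476, a call that 18 of 24 leave-outs of 1 array lost.

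Of 15 nuclear respiratory chain genes, 7 were measured by 8 probe sets. On +P 3 of the 8 were higher in pnp1-1 at 3 h, and 2 were higher and 1 lower at 1 week, while on -P 1 was higher at 3 h and 0 were called at 1 week. Of all probe sets on +P, 4.09% were called higher at 3 h, and 3.33% higher and 4.01% lower at 1 week. On -P, 2.51% were called higher at 3 h and 1.64% in either direction at 1 week. SDH1-1, the flavoprotein subunit of succinate dehydrogenase, was higher by 0.94 ± 0.18 on +P at 3 h (limma adjusted p = 0.00474), by 0.83 on -P at 3 h (0.0154) and by 0.86 on +P at 1 week (0.00865). Its call on -P at 3 h depended on WT replicate 3 and on pnp1-1 replicates 2 and 3, since leaving out any 1 of them ended it. With only the groups compared in the fit, its calls on +P and -P at 3 h were lost (adjusted p = 0.0989 and 0.115). The SDH1-1 call on -P at 3 h was also lost with each time fitted alone (0.0599) and without the 5 arrays of raised lower quartile (0.0583). SDH2-1, its iron-sulfur subunit, has 2 probe sets, of which 1 stayed between 3.49 and 3.81 on all arrays. By the other it was higher by 0.89 ± 0.17 on +P at 3 h (limma adjusted p = 0.00411; 0.167 with only the groups compared) and by 0.60 on +P at 1 week (0.0388). The 1-week call was lost without any 1 of 5 of the 6 arrays. It was also lost with the replicate block (0.0528) and without the 5 arrays of raised lower quartile (0.0722). Averaging replicates 2 and 3 of WT +P ended it too (0.132). The complex I subunit FRO1 was lower on +P at 1 week, by -0.48 ± 0.12 (limma adjusted p = 0.0231). Leaving out any 1 of WT replicates 2 and 3 and pnp1-1 replicates 1 and 2 ended that call. So did median centring (0.106), leaving out the 5 arrays of raised lower quartile (0.161) and averaging replicates 2 and 3 of WT +P (0.0768). MPPBETA, a processing peptidase subunit within complex III, was higher by 0.49 ± 0.14 on +P at 3 h (0.0429), and that call was lost in 8 of 10 other settings.

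Of 14 nuclear genes of alternative respiration and mitochondrial stress, 4 were measured, and 2, 2, 3 and 2 of them were higher in pnp1-1 on +P and -P at 3 h and on +P and -P at 1 week, with 0 lower. Of all probe sets, 4.09%, 2.51%, 3.33% and 1.1% were called higher, in the same order. UPOX (AT2G21640), a mitochondrial protein raised by oxidative stress, had 63.2, 67.9 and 53.5 in WT and 777, 1757 and 1091.5 in pnp1-1 on +P at 3 h. The mutant arrays lay far above WT there and in the other 3 conditions. The differences were 4.22 ± 0.40 (18.7-fold, limma adjusted p = 1.65e-05) and 4.41 (7.26e-06) on +P and -P at 3 h, and 3.45 (5.73e-05) and 3.33 (0.000123) at 1 week. With only the groups compared in the fit, the call on -P at 1 week was lost (adjusted p = 0.0946). NDB4, an external alternative NAD(P)H dehydrogenase, was called in the same 4 comparisons, but all WT arrays lay between 2.98 and 4.12. With values under 16 set to 16 its differences shrank from 2.89, 2.83, 3.76 and 3.00 to 0.67, 0.61, 1.38 and 0.79, and the call remained only on +P at 1 week. With only the groups compared, its calls on +P and -P at 3 h were lost (adjusted p = 0.0909 and 0.0608).

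**Figure D4:**
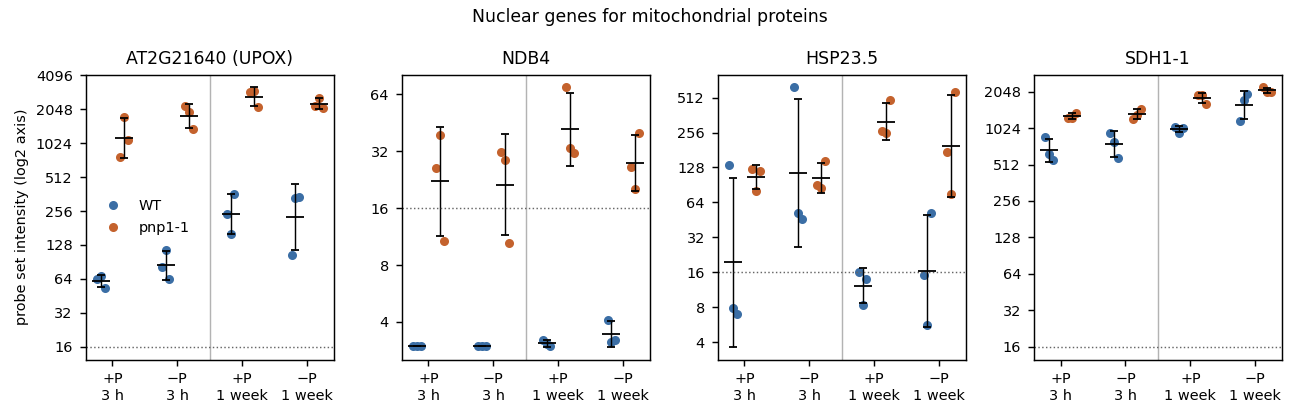
Intensities of UPOX, NDB4, HSP23.5 and SDH1-1 on every array, on log2 axes that differ between panels, by medium, time and genotype, with 1 point per array, a bar at the geometric mean of 3 arrays and whiskers of 1 SD of the log2 values (dotted line: 16). UPOX separates by genotype in all 4 conditions, and the NDB4 points of WT all lie between 2.98 and 4.12.

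HSP23.5, a mitochondrial small heat shock protein, was called on +P at 1 week, at 15.96, 8.4 and 13.96 in WT and 262.25, 252.81 and 483.3 in pnp1-1 (4.69 ± 1.10, limma adjusted p = 0.0144). All 3 WT values are in the dim range, and with values under 16 set to 16 the difference was 4.31 (adjusted p = 0.0139). Its call was lost without WT replicate 2 or pnp1-1 replicate 2. Leaving out the 5 arrays of raised lower quartile (0.104) or averaging replicates 2 and 3 of WT +P (0.0546) also ended it. At 3 h WT replicate 1 stood apart, with 135.1 on +P and 625.2 on -P against 7.0 to 52.2 in the other 4 WT arrays, and the genotypes overlapped. The alternative dehydrogenase NDB2 likewise had its highest WT value at 3 h on +P in replicate 1 (288.3).

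A marker of other tissue moved with genotype. Of 5 root markers, 2 were measured, although roots had been removed. PYK10, a beta-glucosidase of roots and hypocotyls, ran from 852 to 3026.95 in WT and from 3372.1 to 11246.35 in pnp1-1, with differences of 1.80 ± 0.35, 2.39, 3.46 and 2.24 and limma adjusted p-values of 0.00442, 0.000672, 1.39e-05 and 0.00159. With only the groups compared, the calls on +P at 3 h (0.119) and on -P at 1 week (0.158) were lost, and the latter was also lost without the 5 arrays of raised lower quartile (0.0501). The root hair gene EXPA7 lay between 3.32 and 3.59 on all arrays. Of 6 leaf markers, 1 was measured: RCA, Rubisco activase, ran from 17511.92 to 36282.59 over all arrays and was called in none of the 4. The part of PYK10-expressing tissue in the differences of ccmFN1, 244906_at and the other members was not tested.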

How the data were processed

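Total RNA was amplified, biotin-labelled and hybridised to single-colour arrays. Each deposited value is a linear intensity of a probe set. GCRMA, affy and limma are named without versions, per the submitters' processing notes, and the order of steps is not given in the sources used here. Here log2 was taken, and lmFit and eBayes of limma 3.58.1 (R 4.3.3) estimated a mean for each of the 8 groups over the 24 arrays (16 residual degrees of freedom, prior 1.405). Adjusted p-values are Benjamini-Hochberg over 22746 probe sets within each comparison, after 64 controls were left out, and a call is an adjusted p under 0.05. Errors of differences are standard errors of that fit. There are no reads to count, so precision is limited by the number of arrays. An intensity of 16 marks the dim range, where GCRMA values have no dependable order. The fit was tested on simulated data.

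The annotation gives 1 gene for 13513 probe sets, several for 503 and lists none for 8794. All members with a listed gene of named function could be named; unlisted members and chromosome 2 loci are named where called, and 244903_at and the loci of the dim range were named after their values were seen. Nuclear genes were named from called ones and, for PNP2 and NDB2, after seeing values. The part described and the gene lists were chosen with earlier results of these data known, while ID number alone set which probe sets are members. Every value column (0 unmatched) belonged to a labelled sample.

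Replicate numbers are shared by groups. Deviations of same-numbered arrays from their group means correlated over 0.1 in all 3 pairs for genotype on -P at 3 h (0.160, 0.356 and 0.310) and 1 week (0.546, 0.623 and 0.600), and for phosphate at 3 h in WT (0.671, 0.466 and 0.687) and pnp1-1 (0.230, 0.433 and 0.422). For genotype on +P at 3 h the same values were -0.101, 0.017 and -0.003. On -P at 1 week, replicate 1 of both genotypes had a raised lower quartile (6.36 in WT and 6.45 in pnp1-1). No label states a pairing. Whether these correlations come from paired samples or from a shared array background was not tested. The main fit and its p-values do not pair arrays, and no fit that paired only the groups compared was run. Alternatives were a floor, a filter, quantile and median scaling, another prior, the replicate block, smaller fits and leaving out arrays.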

Additional observations from a re-analysis of the deposited data

How the results depend on the processing

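On +P at 3 h the count of 0 members became 2 with the replicate block (AT2G07751 and 244921_s_at) and 1, AT2G07751 each time, with only probe sets of at least 16 on 3 arrays tested, with quantile normalization and with each array centred on its median; leaving out 1 array gave 0 to 1. In that comparison same-numbered arrays did not deviate together (-0.101, 0.017 and -0.003), unlike in the other comparisons within 3 h, and the block is fitted over all groups of that time. On +P at 1 week the count of 1 became 0 with only the groups compared, with each time fitted alone and, in 2 alternatives chosen after seeing the data, with the 5 arrays of raised lower quartile left out and with replicates 2 and 3 of WT +P averaged (their values lie very close); leaving out 1 array gave 0 to 2, where nad6 joined 244906_at without pnp1-1 replicate 1, and 244956_s_at was called in its place without pnp1-1 replicate 3. On -P at 1 week the count of 1 became 0 with only the groups compared (ccmFN1 adjusted p = 0.0654), and leaving out 1 array gave 1 throughout. In the comparisons whose same-numbered arrays deviated together, the replicate block changed no count of members. The block is 1 term per replicate number shared by all groups of a time, so it does not pair only the groups compared. Whether such a paired test would change a count was not tested. The other 9 planned counts were 0 in all settings and leave-outs. The added mean over the 4 conditions gave 4 to 5 calls. The causes of these changes were not tested. For 37 members a signal under 16 limits what a difference can show.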
